A study of Mus musculus with 6 samples.

Results

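This report describes 8 genes of antigen presentation and interferon-induced defence, *Cd74*, *H2-K1*, *Psmb8*, *Tap1*, *Nlrc5*, *Igtp*, *Gbp10* and *Bst2*, in RNA-Seq of mouse hearts. They are 8 of 4132 genes analysed here, and all 8 had a mean of at least 1 FPKM (fragment counts divided by transcript length and by library size), as 2041 of the 4132 genes did. The genes were picked by name with their levels in these 6 hearts already known, including the high values of 1 vehicle mouse. Their levels and fold changes are therefore given as a description, without a test.

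All mice were db/db males on the C57BLKS/J background, labelled lepr-/-, which lack a functional leptin receptor and become obese and diabetic. From 10 weeks of age, 3 mice received the FGF1 variant (FGF1ΔHBS, an FGF1 with reduced heparan sulfate binding) intraperitoneally at 0.5 mg/kg every other day for 16 weeks, and 3 mice received saline (vehicle). Hearts were taken at 26 weeks. No heart of a non-diabetic mouse was sequenced in the samples used here, so the levels can be read only between the 2 groups of diabetic mice.

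MHC class I molecules display peptides from inside the cell to CD8 T cells. The peptides are cut by the proteasome, whose interferon-induced form holds the catalytic subunit encoded by *Psmb8*, and are carried into the endoplasmic reticulum by a transporter of which *Tap1* encodes one chain. There they are loaded on heavy chains such as that of *H2-K1*, and *Nlrc5* encodes the transactivator that drives transcription of these class I genes. *Cd74* encodes the invariant chain that guides MHC class II molecules, which present material taken up from outside, mostly in macrophages, dendritic cells and B cells. *Igtp* (also called Irgm3) and *Gbp10* encode GTPases of 2 families that interferon-γ induces and that act at the vacuoles of intracellular pathogens. *Bst2* encodes tetherin, a membrane protein that holds budding virus particles at the cell surface.

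Most of these genes are known to respond to interferon, so the promoters that can be shown were searched for short motifs known from interferon-responsive and MHC promoters. RefSeq promoters on GRCm38.p6, from 250 bases before to 50 bases after the transcription start, were held for 5 of the 8 genes (*Bst2*, *H2-K1*, *Igtp*, *Psmb8* and *Tap1*). The motifs were GAAANNGAA (the core of the interferon-stimulated response element), TTCNNNGAA (the gamma-activated site) and CCAAT (the Y box, part of the module that NLRC5 and CIITA use), each looked for on both strands. Of all 32851 promoters, 8.56%, 8.3% and 37.4% held them, respectively. The 4 promoters below are shown because they differ in which of these exact patterns they hold. *Igtp* and *Bst2* held both interferon patterns, *Psmb8* only that of the gamma-activated site and *H2-K1* only that of the Y box. They run 5′ to 3′ on the gene's own strand, and the capitals mark the matches.
*Igtp*, chr11:58199306-58199605, plus strand: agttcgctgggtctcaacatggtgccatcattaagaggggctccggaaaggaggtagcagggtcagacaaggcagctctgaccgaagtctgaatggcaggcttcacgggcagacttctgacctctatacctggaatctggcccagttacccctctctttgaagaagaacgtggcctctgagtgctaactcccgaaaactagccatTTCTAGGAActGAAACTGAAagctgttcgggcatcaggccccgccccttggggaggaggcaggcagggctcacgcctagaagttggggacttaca
*Bst2*, chr8:71537423-71537722, minus strand: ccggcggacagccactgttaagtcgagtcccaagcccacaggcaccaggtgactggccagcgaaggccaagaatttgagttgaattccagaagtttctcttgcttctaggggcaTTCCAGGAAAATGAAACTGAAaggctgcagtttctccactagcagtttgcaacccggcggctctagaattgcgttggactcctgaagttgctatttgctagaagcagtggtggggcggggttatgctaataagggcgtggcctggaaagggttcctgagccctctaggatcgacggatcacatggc
*Psmb8*, chr17:34197945-34198244, plus strand: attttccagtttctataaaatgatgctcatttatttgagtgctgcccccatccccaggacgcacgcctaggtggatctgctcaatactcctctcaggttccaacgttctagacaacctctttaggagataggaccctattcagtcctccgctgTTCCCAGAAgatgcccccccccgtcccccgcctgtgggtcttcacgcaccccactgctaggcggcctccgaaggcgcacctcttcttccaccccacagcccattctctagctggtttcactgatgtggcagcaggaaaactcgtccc
*H2-K1*, chr17:34000298-34000597, minus strand: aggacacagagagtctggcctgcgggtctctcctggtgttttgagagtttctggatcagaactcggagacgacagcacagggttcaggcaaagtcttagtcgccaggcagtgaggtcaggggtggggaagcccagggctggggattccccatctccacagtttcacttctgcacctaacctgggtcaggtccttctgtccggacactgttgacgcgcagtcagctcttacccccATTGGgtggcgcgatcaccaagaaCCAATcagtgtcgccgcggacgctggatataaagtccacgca

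In the *Igtp* promoter the gamma-activated site TTCTAGGAA lay at -45 to -37 from the start and the response element core GAAACTGAA at -34 to -26. In the *Bst2* promoter the gamma-activated site TTCCAGGAA at -136 to -128 overlapped the core GAAAATGAA at -130 to -122, which overlapped a second core, GAAACTGAA, at -124 to -116. *Psmb8* held TTCCCAGAA at -97 to -89 from its RefSeq start. That window begins at 34197945, after the annotated start of the gene at 34197721, so it lies within the gene. The bases before 34197721 were not searched for *Psmb8*. *H2-K1* held the Y box at -16 to -12 on the other strand and again at 9 to 13. From a second RefSeq start of *H2-K1* the same boxes lie at -30 to -26 and at -6 to -2, and *Tap1* held it at -222 to -218. A match only says that these letters are present in the window. A missing match only says that the exact pattern is absent, as variant forms of the motifs were not searched.

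The class I genes come first. *H2-K1* (ENSMUSG00000061232) is on chromosome 17 of GRCm38 from 33996017 to 34000347, on the minus strand. Its level was 9.87, 10.8 and 53.1 FPKM in vehicle replicates 1, 2 and 3, and 7.79, 5.33 and 9.64 FPKM in the 3 FGF1ΔHBS hearts. The lowest vehicle heart was above the highest treated heart by a small margin, and vehicle replicate 3 was far above all others. The means were 24.6 ± 24.7 FPKM (SD, n = 3) with vehicle and 7.58 ± 2.16 FPKM with FGF1ΔHBS, a log2 fold change of -1.18 on the log2(FPKM + 1) scale that became -0.43 without vehicle replicate 3. The C57BLKS/J strain carries another MHC haplotype than the C57BL/6J reference, and class I chains are near copies of each other. How reads were shared between them was not tested.

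*Psmb8* (ENSMUSG00000024338, chromosome 17, 34197721 to 34201454, plus strand) encodes the β5i subunit of the immunoproteasome. It measured 5.93, 6.91 and 44.7 FPKM in the vehicle hearts and 5.30, 3.95 and 5.47 FPKM in the treated hearts. Again 5 hearts lay close together, with vehicle replicates 1 and 2 just above the treated ones. This gave a log2 fold change of -1.21 with all mice and of -0.34 when vehicle replicate 3 was left out. The constitutive core subunit *Psmb7* varied little, from 92.9 to 109 FPKM. Per length, *Psmb8* stood at 0.0638, 0.0666 and 0.466 of the level of *Psmb7* in the vehicle hearts and at 0.0487, 0.0372 and 0.0567 in the treated hearts. The ratio was thus high in vehicle replicate 3 alone, and it was lower in each treated heart than in each vehicle heart.

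*Tap1* (ENSMUSG00000037321) lies directly before *Psmb8*, at 34187553 to 34197225 of chromosome 17, with 495 bases between them. It measured 2.29, 2.62 and 22.3 FPKM with vehicle and 1.62, 1.61 and 2.27 FPKM with FGF1ΔHBS. The closest values of the 2 groups, 2.29 and 2.27 FPKM, were all but equal, so the groups were separated by less than the spread within either. With all mice its log2 fold change was -1.21, which shrank to -0.29 when vehicle replicate 3 was left out. The table's locus for *Tap1* also spans *Psmb9*, which is read in the opposite direction and shares 212 bases with it, and the locus for *Psmb8* also spans *Tap2*. Whether the counting used strand is not given in the sources used here.

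*Nlrc5* (ENSMUSG00000074151, chromosome 8, 94434356 to 94527272, plus strand) was the least abundant of the class I genes. It measured 1.09, 1.03 and 11.6 FPKM with vehicle and 0.750, 0.414 and 0.316 FPKM with FGF1ΔHBS. Here vehicle replicates 1 and 2 were clearly above the treated ones, with a mean 2.15 times as high, although at levels near 1 FPKM. On the log2 scale the difference was -1.34 with all mice, or -0.47 when vehicle replicate 3 was left out. Without that heart the mean of *Nlrc5* was 0.720 FPKM, so it passed the minimum of 1 FPKM only through it.

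The class II invariant chain, *Cd74* (ENSMUSG00000024610, chromosome 18, 60803848 to 60812652, plus strand), had the clearest separation between the groups. Its level was 27.1, 25.1 and 90.9 FPKM in the vehicle hearts and 4.67, 5.01 and 5.88 FPKM in the treated hearts. Every vehicle heart was several times above every treated heart, and the treated hearts were nearly alike. The means were 47.7 ± 37.4 FPKM with vehicle and 5.19 ± 0.627 FPKM with FGF1ΔHBS, and the log2 fold change of -2.72 was the lowest of the 2041 genes. Without vehicle replicate 3 it was -2.14, with 3 genes lower, and the mean of the other vehicle hearts, 26.1 FPKM, was 5.03 times the treated mean. Nothing is read from these ranks, since *Cd74* was picked with its levels in both groups known. *Ciita*, the transactivator of class II genes and of *Cd74*, was under the minimum level, at 0.148, 0.172 and 0.390 FPKM with vehicle and 0.112, 0.0319 and 0.105 FPKM with FGF1ΔHBS. Its groups were in the same order as those of *Cd74*, at a fraction of 1 FPKM.

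*Igtp* (ENSMUSG00000078853, chromosome 11, 58199556 to 58207591, plus strand) behaved otherwise. It measured 3.55, 4.32 and 385 FPKM in the vehicle hearts and 3.40, 4.40 and 3.69 FPKM in the treated hearts. Leaving vehicle replicate 3 aside, the 5 hearts were within about 1 FPKM of each other and the groups were interleaved. The vehicle mean of 131 ± 220 FPKM thus describes no single heart. A log2 fold change of -2.13 with all mice became -0.031 once vehicle replicate 3 was left out. *Irgm2*, a GTPase of the same family, overlaps *Igtp* by 7974 bases on the same strand and lies in the locus that the table gives for it, so the reads of the 2 genes may not be separable.

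*Gbp10* (ENSMUSG00000105096, chromosome 5, 105215699 to 105239533, minus strand), of the guanylate-binding proteins, measured 1.56, 2.08 and 66.4 FPKM with vehicle and 2.23, 2.35 and 1.41 FPKM with FGF1ΔHBS. Its groups were interleaved too. The log2 fold change of -1.45 turned to 0.081 without vehicle replicate 3, so the direction rested on that heart. *Gbp10* is a near copy of other guanylate-binding proteins, and its locus in the table also spans *Gbp6*.

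*Bst2* (ENSMUSG00000046718, chromosome 8, 71534255 to 71537456, minus strand) had the smallest difference of the 8 genes with all mice, although those of *Igtp* and *Gbp10* were smaller without vehicle replicate 3. It measured 7.96, 9.68 and 26.3 FPKM with vehicle and 6.45, 6.55 and 9.69 FPKM with FGF1ΔHBS. The third treated heart was as high as the second vehicle heart, and the groups overlapped. Its log2 fold change of -0.71 became -0.21 once vehicle replicate 3 was left out.

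**Figure D1:**
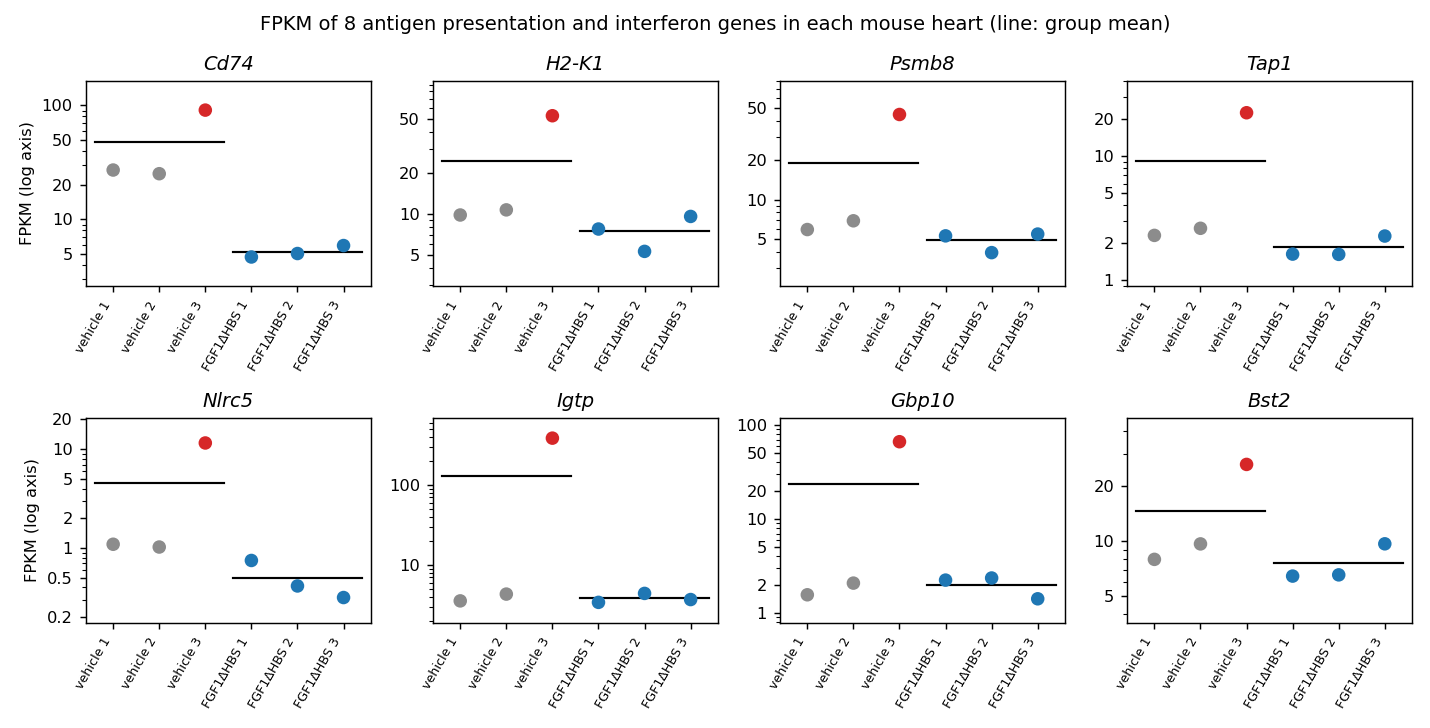
Level of each of the 8 genes (FPKM, log axis, a different range in each panel) in the 3 vehicle hearts (grey, with replicate 3 in red) and the 3 FGF1ΔHBS hearts (blue), with a line at each group mean. Vehicle replicate 3 is the highest heart in all 8 panels, and only for *Cd74* do the other vehicle hearts, at 25.1 and 27.1 FPKM, stand several times above the treated hearts.

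Thus 5 of the 8 genes (*Cd74*, *H2-K1*, *Psmb8*, *Tap1* and *Nlrc5*) were lower in every treated heart than in every vehicle heart, with or without vehicle replicate 3. Of all genes tested, 13.6% were so with all mice and 28.7% without that heart, and nothing is read from the members' count since they were picked on this comparison. The median log2 fold change of the 8 genes was -1.28, against -0.021 for all genes tested. Without vehicle replicate 3 these were -0.31 and -0.049, and 7 of the 8 genes were then within 0.5 of 0, the exception being *Cd74*.

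Vehicle replicate 3 was the highest of the 6 hearts for all 8 genes, as it was for 15.8% of the genes tested. It was at least 2 times as high as the highest other heart for all 8 genes and for 0.98% of the genes tested, that is 20 genes, of which the 8 are a part. The ratio to the highest other heart was 87.5 for *Igtp*, 28.2 for *Gbp10*, 10.6 for *Nlrc5*, 8.52 for *Tap1*, 6.47 for *Psmb8* and 4.93 for *H2-K1*, and no other gene tested had a higher ratio than these 6. It was 3.36 for *Cd74* and 2.72 for *Bst2*. Nothing is read from these counts and ranks, since the 8 genes were picked with the values of vehicle replicate 3 known. The order of the ratios runs from the GTPases through the class I genes to *Cd74* and *Bst2*, and it is not the order of the fold changes without that heart, in which *Cd74* comes first and the GTPases last. Summed over the 8 genes, the level was 59.3, 62.5 and 701 FPKM in the vehicle hearts and 32.2, 29.6 and 38.4 FPKM in the treated hearts. *Cd74* made up most of the difference between vehicle replicates 1 and 2 and the treated hearts, and *Igtp* most of the excess of vehicle replicate 3.

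**Figure D2:**
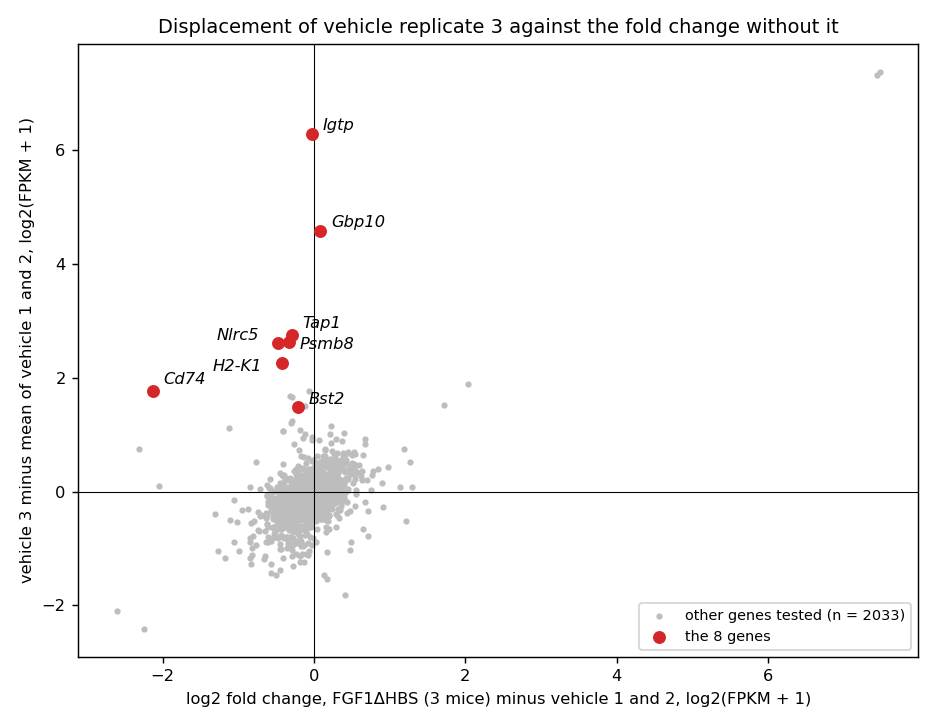
Each point is 1 of the 2041 genes tested, with its log2 fold change between the FGF1ΔHBS hearts and vehicle replicates 1 and 2 on the horizontal axis and the excess of vehicle replicate 3 over the same 2 hearts on the vertical axis, both as differences of log2(FPKM + 1). *Igtp* and *Gbp10* are at 6.30 and 4.59 on the vertical axis and close to 0 on the horizontal one, while *Cd74* is at 1.76 and -2.14. The 2 grey points at the upper right are mt-Co2 and Gm28661, which were listed at 0 in vehicle replicate 2 and were high in the other 5 hearts.

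**Figure D3:**
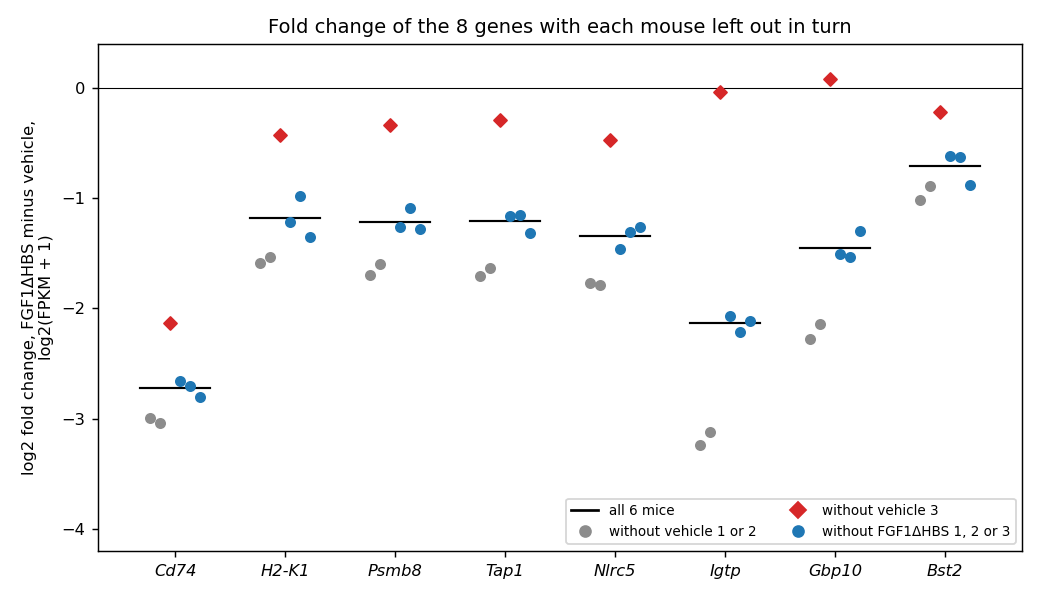
Log2 fold change of each of the 8 genes, FGF1ΔHBS minus vehicle on log2(FPKM + 1), with all mice (black line) and with each mouse left out in turn (points). Leaving out vehicle replicate 3 (red) brings *Igtp* to -0.031 and *Gbp10* to 0.081 but leaves *Cd74* at -2.14, whereas leaving out any other mouse keeps every gene below 0.

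The depth of the libraries, read from the steps between low values, was 1.0 to 1.2 times that of the shallowest library and 1.09 times in vehicle replicate 3. With limma on log2(FPKM + 1), 0.098% of the 2041 genes passed an adjusted p of 0.05 (2 genes), while 10.0% were lower and 7.1% higher with FGF1ΔHBS at an unadjusted p under 0.05. This split of 204 lower and 145 higher genes depended on the scaling, with 182 lower and 184 higher after median ratio scaling and 173 lower and 180 higher after quantile normalization. None of the 8 genes is tested here.

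The other genes of these pathways were taken from lists that do not hold the 8 genes. Of 238 listed genes 27 were analysed here, and 21 of these reached a mean of 1 FPKM, or 20 without vehicle replicate 3. By limma, 3 of the 21 were lower with FGF1ΔHBS at an unadjusted p under 0.05, none was higher and none passed an adjusted p of 0.05. Over the same 21 genes the median log2 fold change was -0.33, or -0.20 without vehicle replicate 3. Over all genes tested these medians were -0.021 and -0.049. The 3 genes were *Ddx58*, *Isg20* and *Ifi203*, and in each every treated heart was below every vehicle heart without vehicle replicate 3 standing apart. They were picked by p on this same contrast, so nothing is read from their separation. Of the 21 genes 8 were lower in every treated heart than in every vehicle heart, against 13.6% of all genes tested. At an unadjusted p under 0.05, 10.0% of all genes tested were lower.

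*Ddx58* encodes RIG-I, a sensor of viral RNA, and measured 4.54, 4.96 and 5.48 FPKM with vehicle and 3.94, 3.06 and 3.09 FPKM with FGF1ΔHBS (log2 fold change -0.46, SE 0.114, limma adjusted p = 0.116). *Isg20*, which encodes an exonuclease that degrades RNA, measured 3.69, 4.36 and 4.04 FPKM against 1.95, 3.53 and 2.56 FPKM (-0.47, SE 0.162, limma adjusted p = 0.205). *Ifi203*, of the interferon-inducible p200 family, measured 12.9, 10.4 and 8.36 FPKM against 7.34, 6.20 and 7.56 FPKM (-0.51, SE 0.152, limma adjusted p = 0.154). Vehicle replicate 3 was the lowest vehicle heart for *Ifi203*, the opposite of the 8 genes. The adjusted p ranged from 0.0895 to 0.358 over the alternatives for *Ddx58*, from 0.159 to 0.411 for *Isg20* and from 0.0330 to 0.420 for *Ifi203*, with the lowest value for each reached without vehicle replicate 3.

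Of the other class I pathway genes, *Psmb10* and *H2-T23* were highest in vehicle replicate 3 and lower in every treated heart than in every vehicle heart, as *Psmb8* and *H2-K1* were, and neither passed the test. *Psmb10*, which encodes the β2i subunit of the immunoproteasome, measured 30.8, 24.4 and 90.5 FPKM with vehicle and 22, 19.9 and 23.9 FPKM with FGF1ΔHBS (log2 fold change -0.88, SE 0.434, limma adjusted p = 0.359). *H2-T23*, a class I chain that presents leader peptides to NK cell receptors, measured 12.7, 14.0 and 32.8 FPKM against 9.67, 10.9 and 11.7 FPKM (-0.70, SE 0.321, limma adjusted p = 0.317). In both vehicle replicate 3 was more than 2 times as high as any other heart, and without it the log2 fold changes were -0.31 for *Psmb10* and -0.29 for *H2-T23*. *H2-Q5* measured 1.38, 0.477 and 4.91 FPKM against 0.533, 0.330 and 0.746 FPKM, and its groups overlapped. It reached the minimum of 1 FPKM only through vehicle replicate 3. *H2-Q10* was under the minimum level in the mean and was highest in vehicle replicate 2, at 0.839 FPKM.

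The constitutive proteasome genes showed none of this, with *Psmb2* at 80.7, 78.9 and 78.6 FPKM with vehicle and 83.3, 77.1 and 82.2 FPKM with FGF1ΔHBS. *Psmb10* over *Psmb7*, per length, was 0.331, 0.235 and 0.943 in the vehicle hearts and 0.202, 0.187 and 0.247 in the treated hearts. Like that of *Psmb8*, this ratio was highest in vehicle replicate 3. Unlike it, the groups overlapped, with 0.247 in a treated heart above 0.235 in a vehicle heart. This overlap depended on the subunit it was set against. *Psmb10* over *Psmb2* was 0.381, 0.309 and 1.15 with vehicle and 0.264, 0.258 and 0.291 with FGF1ΔHBS, without overlap. Of the class II genes, *Rfxank*, a subunit of the factor that binds class II promoters, had a log2 fold change of -0.061 (-0.097 without vehicle replicate 3), and *H2-Eb2* was listed at 0 in all hearts but vehicle replicate 3. No class II chain at a measurable level was analysed here, so the difference in *Cd74* could not be set beside that of its partners.

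Of 100 other interferon-stimulated genes 11 were tested, with a median log2 fold change of -0.46, or -0.20 without vehicle replicate 3. Vehicle replicate 3 was the highest heart for 6 of them, and at least 2 times the highest other heart for 3, *Irf7*, *Rtp4* and *Xaf1*, which are named here after their values were seen. *Irf7*, the factor that amplifies type I interferon, measured 3.91, 3.71 and 12.6 FPKM with vehicle and 2.94, 4.50 and 3.01 FPKM with FGF1ΔHBS. *Xaf1* measured 7.19, 7.73 and 18.4 FPKM against 5.4, 5.71 and 6.40 FPKM. These ratios were below those of *Igtp* and *Gbp10*. The most abundant gene of the list, *Ly6e*, was level at 93.4, 89.7 and 98.8 FPKM against 87.6, 87.3 and 104 FPKM, and *Ifi205* had a log2 fold change of 0.21, or 0.45 without vehicle replicate 3. Of 33 receptor and signalling genes 4 were tested, and none passed at an unadjusted p under 0.05. *Ifnar1*, *Jak2* and *Irf2* had log2 fold changes of -0.077, 0.085 and -0.32, or -0.20, 0.038 and -0.35 without vehicle replicate 3. No other interferon GTPase of the 31 listed was analysed here.

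**Figure D4:**
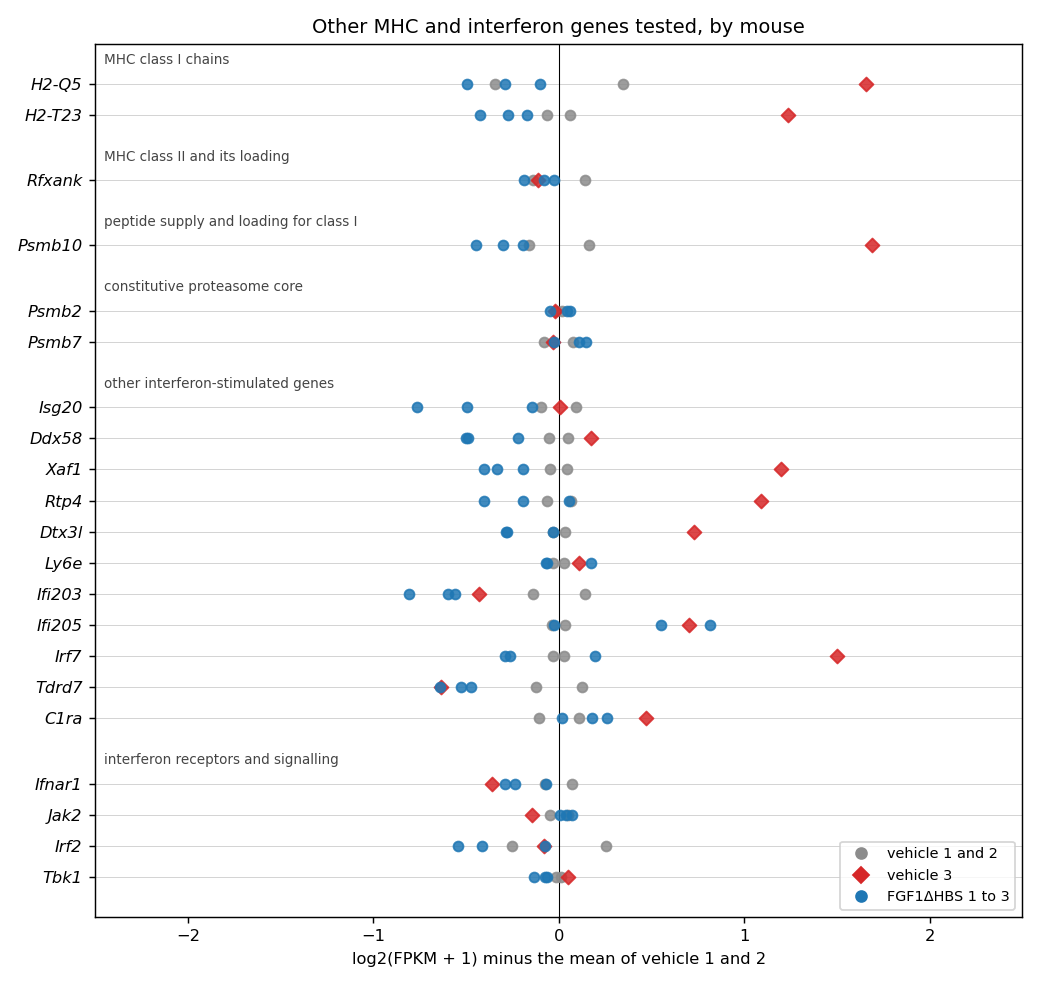
Other MHC and interferon genes tested (n = 21), grouped by list, with each heart's log2(FPKM + 1) minus the mean of vehicle replicates 1 and 2 on the horizontal axis. Vehicle replicate 3 (red diamonds) is far to the right for *Psmb10*, *H2-T23*, *H2-Q5*, *Irf7*, *Xaf1* and *Rtp4*, and within the other hearts for the constitutive proteasome and signalling genes or beside them.

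Cell type markers were read beside these levels, since in whole hearts fewer cells of a type and less RNA per cell cannot be told apart. The heart label was checked on *Tnnt2*, *Actc1* and *Tnnc1*, the 3 of 15 cardiomyocyte markers analysed here, which were abundant in every library and summed to 10799 to 12736 FPKM with vehicle and 11562 to 13168 FPKM with FGF1ΔHBS. The macrophage and monocyte markers analysed here, *Ptprc*, *Cd14* and *Aif1* (3 of 21), summed to 6.55, 6.04 and 14.4 FPKM with vehicle and 4.17, 6.29 and 4.84 FPKM with FGF1ΔHBS. They were thus highest in vehicle replicate 3, as the 8 genes were, and *Cd14* was 3.84, 3.91 and 9.17 FPKM against 2.4, 3.04 and 2.55 FPKM (log2 fold change -0.77, SE 0.282, limma adjusted p = 0.230; -0.42 without vehicle replicate 3). *Ptprc* was 1.67, 1.32 and 3.43 FPKM against 1.01, 1.21 and 1.02 FPKM, and *Aif1* did not follow, with 2.03 FPKM in a treated heart as its highest value. In vehicle replicates 1 and 2 *Cd74* was 5.03 times the treated mean, where *Cd14* was 1.45 times, *Ptprc* 1.38 times and *Aif1*, in the other direction, 0.682 times.

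Markers of lymphocytes were near 0. *Cd8a*, *Cd8b1* and *Lck* (3 of 21 T and NK cell markers) summed to 0.179 to 0.720 FPKM with vehicle, highest in replicate 3, and 0.15 to 0.450 FPKM with FGF1ΔHBS. *Cd22* and *Blk* (2 of 11 B cell markers) summed to 0.243 to 0.388 FPKM and 0.0197 to 0.262 FPKM. *Batf3*, the 1 dendritic cell marker of 10 analysed here, was 0.0545 to 0.183 FPKM with vehicle and 0 to 0.284 FPKM with FGF1ΔHBS. Of these sums only that of the T and NK cell markers was highest in vehicle replicate 3, and of its genes *Cd8b1* alone, at 0.183 FPKM, was highest there. None of the 6 genes reached a mean of 1 FPKM.

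Endothelial cells and fibroblasts also express MHC class I. *Tie1*, *Emcn*, *Esam* and *Mmrn2* (4 of 14) summed to 90.9, 94.8 and 56.5 FPKM with vehicle and 67.7, 54.5 and 77.8 FPKM with FGF1ΔHBS. *Dcn*, the 1 fibroblast marker of 11 analysed here, was 284, 288 and 154 FPKM against 409, 368 and 431 FPKM. *Dcn* was lowest in vehicle replicate 3, the heart in which the 8 genes were highest. The endothelial sum was low there too, but lower in FGF1ΔHBS replicate 2. Of the 4 endothelial genes only *Emcn* was lowest in vehicle replicate 3, while *Esam*, at 29.9 FPKM, was above every treated heart. *Esam* was lower with FGF1ΔHBS (log2 fold change -0.33, SE 0.0984, limma adjusted p = 0.154) and *Dcn* higher (0.79, SE 0.234, limma adjusted p = 0.154; 0.49 without vehicle replicate 3), neither past the adjusted threshold. *Adipoq* (1 of 7 adipocyte markers) was 0 to 0.217 FPKM and 0.246 to 1.21 FPKM. The part of any of these cell types in the levels of the 8 genes was not tested.

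**Figure D5:**
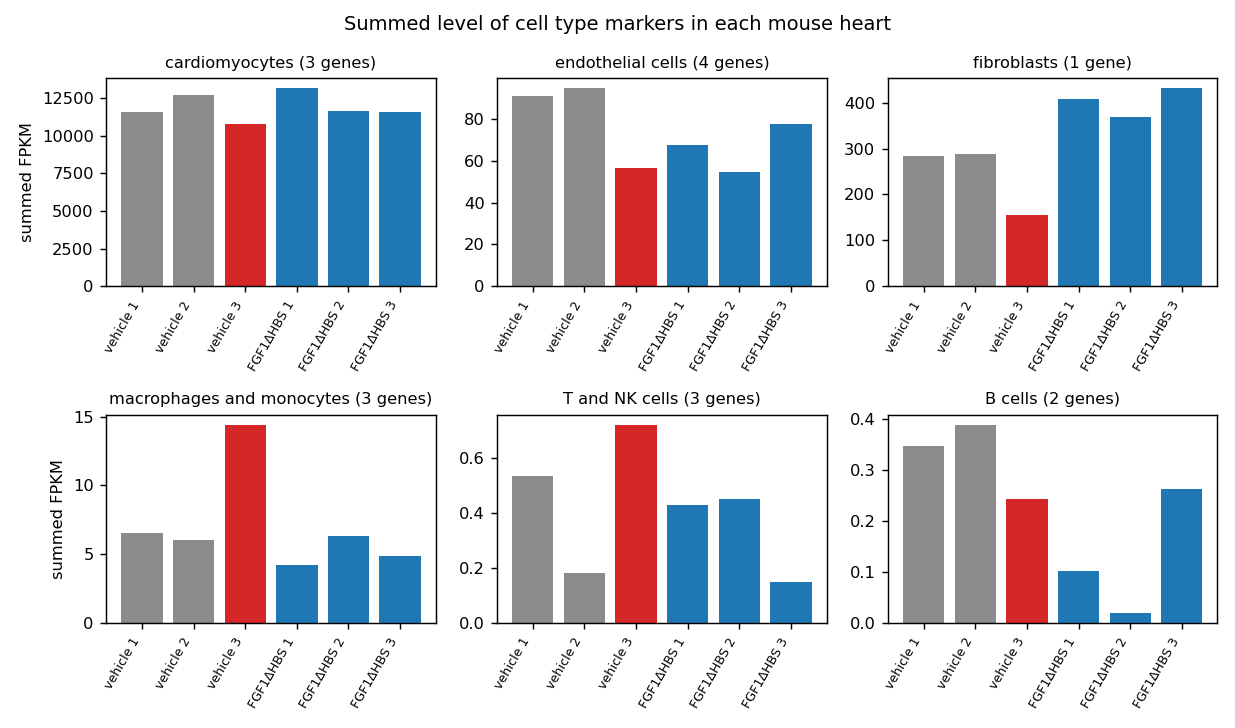
Summed FPKM of the cell type markers analysed here in each heart (bars, from 0; grey, vehicle replicates 1 and 2; red, vehicle replicate 3; blue, FGF1ΔHBS). The macrophage and monocyte sum is 14.4 FPKM in vehicle replicate 3 and at most 6.55 FPKM in the other hearts, while the fibroblast and cardiomyocyte sums are lowest there.

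The 6 genes outside all lists whose levels over the 6 hearts were most like the mean profile of the 8 genes were *AU022252*, *Errfi1*, *Pitpnm1*, *Ago2*, *Jmy* and *Aifm2*, with Pearson's r from 0.967 to 0.989 and Spearman's rho from 0.657 to 0.829. The hearts share 1 table and the likeness rests on vehicle replicate 3, which was the highest for all 6. *Errfi1*, which encodes a feedback inhibitor of the EGF receptor, had the widest excess, with 7.47, 7.32 and 11.7 FPKM with vehicle and 6.51, 6.71 and 7.59 FPKM with FGF1ΔHBS. The excess of vehicle replicate 3 over the highest other heart was 1.17 times for *AU022252* and 1.54 times for *Errfi1*, far under the 87.5 times of *Igtp*.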

How the data were processed

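Hearts of 6 male db/db mice, 3 with vehicle and 3 with FGF1ΔHBS, were profiled by poly(A) RNA-Seq, and the FPKM values deposited by the authors, 1 column per mouse, were used. The authors trimmed reads with Trimmomatic and normalized to transcript length and mapped fragments. The submitters' processing notes name Bowtie 0.12.2, HISAT2 2.0, StringTie 1.3.0 and mm8 with no role, whereas of 4111 identifiers found in GENCODE M21 (GRCm38) 4104 had a locus that overlapped the annotated gene. The table held 4132 genes, part of a transcriptome, so a gene that is missing is not analysed here.

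A limma model (version 3.58.1, R 4.3.3; lmFit, then eBayes with trend, Benjamini-Hochberg adjustment) was fitted without pairing, like the unpaired comparisons of the study, to log2(FPKM + 1) of the 2041 genes whose mean reached 1 FPKM. Folds on this scale understate those of low genes. FPKM gives no absolute depth, only relative depths from the steps between low values, so no counting interval is given.

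The 8 genes and all lists were chosen with earlier results of these data known. Named beside them are listed genes at an unadjusted p under 0.05, the 3 most abundant of each list, and the 6 genes in no list most like the mean profile. Alternatives were a pseudocount of 0.1, no minimum level, a minimum of 5 FPKM, median ratio scaling, quantile normalization, robust eBayes, the replicate number as a block and leaving out each mouse. Promoters were read from RefSeq (GRCm38.p6). Tables and plots were made with Python 3.11.15, pandas 2.3.3 and matplotlib 3.10.9.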

Additional observations from a re-analysis of the deposited data

How the results depend on the processing

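The direction of 7 of the 8 genes held under all alternatives run, and *Gbp10* turned to 0.081 on the log2 scale without vehicle replicate 3. Their fold changes with 1 mouse left out ranged from -3.04 to -2.14 for *Cd74*, from -1.59 to -0.43 for *H2-K1*, from -1.70 to -0.34 for *Psmb8*, from -1.70 to -0.29 for *Tap1*, from -1.79 to -0.47 for *Nlrc5*, from -3.24 to -0.031 for *Igtp*, from -2.28 to 0.081 for *Gbp10* and from -1.02 to -0.21 for *Bst2*, and the value nearest to or past 0 was always that without vehicle replicate 3. *Nlrc5* has no value under the minimum of 5 FPKM.

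Genes past an adjusted p of 0.05 numbered 2, and 4 with a pseudocount of 0.1, 5 with robust eBayes, 1 under either median ratio scaling or quantile normalization, and 0 without a minimum level (488 at an unadjusted p under 0.05). With 1 mouse left out they numbered 0 (without vehicle replicate 2, with 270 at an unadjusted p, or without FGF1ΔHBS replicate 2, with 231) to 84 (without vehicle replicate 3). Without vehicle replicate 1 there were 7. Genes at an unadjusted p under 0.05 numbered 349, and 231 (without FGF1ΔHBS replicate 2) to 496 (without vehicle replicate 3) with 1 mouse left out. The other MHC and interferon genes at an unadjusted p under 0.05 numbered 3, and 5 without a minimum level, 1 at a minimum of 5 FPKM, and 2 to 7 with 1 mouse left out (6, 7 and 7 without vehicle replicates 1, 2 and 3). All were lower with FGF1ΔHBS. Of these lists 21 genes were tested, but 27 without a minimum level, 15 at 5 FPKM and 20 without vehicle replicate 3. Over all genes, those lower at an unadjusted p under 0.05 were 204 of 2041. They were 274 of 4132 without a minimum level and 140 of 1262 at a minimum of 5 FPKM. Without vehicle replicates 1, 2 and 3 they were 170 of 2040, 140 of 2039 and 329 of 2046. Without FGF1ΔHBS replicates 1, 2 and 3 they were 175 of 2043, 123 of 2046 and 154 of 2042. Without vehicle replicate 3, *Tdrd7* (log2 fold change -0.55, limma adjusted p = 0.0452) and *Ifi203* (-0.65, limma adjusted p = 0.0330) passed the adjusted threshold. With all mice the groups of *Tdrd7* overlapped (log2 fold change -0.33, limma adjusted p = 0.41). *Tdrd7* measured 5.81, 4.73 and 3.02 FPKM in vehicle replicates 1, 2 and 3. Vehicle replicate 3, its lowest vehicle heart, thus lay between FGF1ΔHBS replicates 2 and 3, and leaving it out removed the overlap. The cause of these moves between alternatives was not tested.

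With the replicate block, 0 genes passed an adjusted p of 0.05, while 269 of 2041 had an unadjusted p under 0.05, 158 of them lower. Of the 21 other MHC and interferon genes, 8 had an unadjusted p under 0.05, all lower. The deviations of mice with the same number correlated at -0.00783, -0.159 and -0.217, and a shared number was not taken as a pairing. Genes whose groups do not overlap numbered 495, and 906 without vehicle replicate 3, a count added after the data were seen. FPKM of this table gives no absolute depth, so the precision of levels under 1 FPKM, such as those of *Ciita*, is unknown.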

Other observations

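The other genes for which vehicle replicate 3 was at least 2 times as high as any other heart, and that are in none of the lists, were *Plek*, *Cd72*, *Fermt3* and *Spi1*, all named after their values were seen and all known from blood cells. *Plek*, which encodes pleckstrin of platelets and leukocytes, measured 1.44, 1.34 and 7.11 FPKM in the vehicle hearts and 1.0, 1.69 and 1.23 FPKM with FGF1ΔHBS. *Spi1*, which encodes the myeloid factor PU.1, measured 2.58, 2.01 and 5.6 FPKM against 2.16, 2.45 and 1.51 FPKM. The ratio of vehicle replicate 3 to the highest other heart was 4.21 for *Plek*, 2.47 for *Cd72*, 2.26 for *Fermt3* and 2.17 for *Spi1*, below the 4.93 to 87.5 of the class I genes and GTPases among the 8. Their groups were not compared by a test.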
